A study of Mus musculus with 15 samples.

Results

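Ribosome biogenesis factors are the proteins that transcribe the rRNA precursor, modify and cut it, and fold it with ribosomal proteins into the small and large ribosomal subunits. Translation of 54 genes for such factors was described here, of 21727 transcripts listed and 10085 tested. The 54 were chosen by name, from a list of ribosome assembly and rRNA processing genes. No measured value entered the rule, but the list was made with earlier results of these data known. Each matched 1 transcript of GENCODE M21, and all 54 passed the filter on low counts (a CPM, the count scaled to library size, over 2 in at least 14 of the 15 libraries). They lie on 18 chromosomes and were sorted into 9 roles.

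The cells were mouse embryonic stem cells (mESCs) of the E14Tg2a.4 line in culture. In 3 clones both copies of the *Rps27* gene carry a C-terminal 3xFLAG tag made by CRISPR (*Rps27-FLAG*, eS27-FLAG in the labels), in 3 clones the *Rps27l* gene carries the same tag (*Rps27l-FLAG*, eS27L-FLAG in the labels), and 3 are untagged passage-matched WT clones, each tagged clone having been grown from 1 cell. *Rps27* and *Rps27l* are paralogs that code for the small subunit proteins RPS27 and RPS27L. Ribosome-protected fragments (RPFs), the pieces of mRNA that a ribosome shields from RNase A and T1 in lysate of cycloheximide-treated cells, were read from the whole ribosome pool of each of the 9 clones (total RPFs) and from the ribosomes pulled down by anti-FLAG immunoprecipitation in the 6 tagged clones (IP RPFs), which gave 15 libraries in 5 conditions of 3 replicates. Within a replicate both fractions come from 1 clone, fragments of all samples with 1 replicate number were pooled for library preparation, and an IP of untagged cells was not analysed here.

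Libraries held between 3972152 and 8064166 counts, and the 54 members together between 1.85% and 2.09% of a library. By condition this share was 1.96 ± 0.100% (SD, n = 3) in the *Rps27-FLAG* IP RPFs, 2.03 ± 0.0881% in their total RPFs, 1.93 ± 0.0155% in the *Rps27l-FLAG* IP RPFs, 1.95 ± 0.0223% in their total RPFs and 1.99 ± 0.0671% in the WT total RPFs. The markers of mESCs were present: all 11 pluripotency genes passed the filter, with a summed level between 3941 and 4798 normalized CPM, while the 5 endoderm markers summed to at most 14.6 and the 4 trophoblast markers to at most 4.72. The 6 neural markers summed to between 133 and 179, the 5 mesoderm markers to between 6.34 and 29.6 and the 5 fibroblast markers to between 11.3 and 40.0. Of these, 3 neural, 1 mesoderm and 1 fibroblast marker passed the filter, and 0 of the endoderm and 0 of the trophoblast markers did. No fragment of *Rps27* was counted (0 in each of the 15 libraries), so the tagged gene itself could not be checked, and *Rps27l* has between 655 and 1151.

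Ribosome assembly starts in the nucleolus, where RNA polymerase I makes a long rRNA precursor. Small nucleolar ribonucleoproteins (snoRNPs) of the box C/D and box H/ACA kinds guide 2′-O-methylation and pseudouridylation of this RNA, and the small subunit processome, a very large particle built from the UTP-A, UTP-B and MPP10 complexes and U3 snoRNA, folds and cuts its 5′ part. Later factors mature both subunits separately in the nucleus and cytoplasm, and growing pluripotent cells are known to express these genes at high levels.

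The members differ most in the length of their coding sequence (CDS), from 195 nt for *Nop10* to 16749 nt for *Mdn1*, with a median of 1701 nt beside 1443 nt for the 10082 tested transcripts with an annotated CDS. Their codons for the basic residues lysine and arginine made up a median of 14.8% of the CDS beside 11.6% over all, and codons for the acidic residues aspartate and glutamate 13.7% beside 12.1%. The richest stretch of 20 codons held a median of 10.5 acidic codons in the members and 7 in all. Such a stretch held at least 15 acidic codons in 5 of the 54 members (9.26%) and in 201 of the 10082 (1.99%). In 2 of the 5 the whole stretch is acidic, *Npm1* being one of them, and *Las1l* has 18 of 20.

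Some sequences are shown because the results turn on their transcripts, and they were chosen after the values were seen. *Nop10*, the shortest CDS, is given whole, with the codons over which fragments were counted in capitals: the first 15 and last 5 codons are left out by the authors, so that 135 of its 195 nt carry its value. Its 65 codons lie on the plus strand of chromosome 2 of GRCm38 in 2 coding exons, within chr2:112262024-112262453.

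Nop10: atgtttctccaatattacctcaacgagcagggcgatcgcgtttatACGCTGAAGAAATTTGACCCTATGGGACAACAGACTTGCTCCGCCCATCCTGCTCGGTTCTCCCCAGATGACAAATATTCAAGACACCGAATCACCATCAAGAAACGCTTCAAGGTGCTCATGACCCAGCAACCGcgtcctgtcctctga

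For *Npm1* and *Las1l* the first stretch of 20 codons with the most acidic codons is given, with each codon for aspartate or glutamate in capitals. That of *Npm1* covers codons 159 to 178 on the minus strand of GRCm38 within chr11:33157036-33159980, across an intron, and that of *Las1l* codons 541 to 560 on the minus strand at chrX:95940618-95940677.

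Npm1: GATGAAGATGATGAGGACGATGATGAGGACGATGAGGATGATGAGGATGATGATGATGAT
Las1l: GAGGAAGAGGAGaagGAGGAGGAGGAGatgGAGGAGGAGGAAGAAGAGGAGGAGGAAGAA

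The *Npm1* stretch has 13 GAT and 1 GAA, and the *Las1l* stretch 13 GAG and 5 GAA with no aspartate codon. Both transcripts hold an acidic stretch, but their fragments differed between IP and total RPFs in opposite directions, as given below. Reads were kept by the authors only where they aligned uniquely. In 48 of the 54 members no window of 28 nt within the counted CDS occurs in another listed transcript, and in 5 of the other 6 at most 0.184% of windows do. The exception is *Nolc1*, where 3.91% of windows are shared.

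Levels are given per length, as normalized CPM per kb of counted CDS, as the mean ± SD of the 9 total RPF libraries. Most fragments per kb came from the abundant nucleolar proteins: *Npm1*, a histone chaperone that moves between nucleolus and cytoplasm, stood at 2520.3 ± 172 and *Ncl*, which codes for nucleolin, at 1439 ± 93.2. *Npm1* ranked 2 and *Ncl* 56 among the tested transcripts. *Nop10*, a small H/ACA protein, came next with 741 ± 57.7, and the ranges of these 3 over the 9 libraries do not overlap each other. The lowest were *Polr1a*, the largest subunit of RNA polymerase I, with 39.2 ± 1.86 and *Mdn1*, the AAA ATPase that strips factors from the large subunit precursor, with 57.3 ± 5.78. All other members lay above *Polr1a*, which itself stood higher per kb than 60.9% of the tested transcripts, and the median over members was 153.

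In the polymerase I group *Rrn3*, the initiation factor that brings the polymerase to its promoter, stood at 263 ± 20.4 and *Polr1b*, the second largest subunit, at 81.0 ± 4.92. Of the box C/D proteins, *Nop58* (416 ± 33.2), the methyltransferase *Fbl* (412 ± 21.4) and *Nop56* (334 ± 67.2) overlapped in range, while *Rrp9*, which binds only U3 snoRNA, stood at 72.6 ± 5.19. The H/ACA group besides *Nop10* held *Nhp2* at 344 ± 32.3, the chaperone *Nolc1* at 266 ± 22.6, the pseudouridine synthase *Dkc1* at 241 ± 19.8 and *Gar1* at 137 ± 8.96. *Gnl3*, a nucleolar GTPase also called nucleostemin, stood at 233 ± 17.4.

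Subunits of 1 complex did not share 1 level per kb. In UTP-A, which joins the precursor first, the levels were *Wdr43* 222, *Utp4* 187, *Wdr75* 170.3, *Heatr1* 133 and *Utp15* 101 normalized CPM per kb. UTP-B held *Utp6* 131 and *Utp18* 125, and the MPP10 complex with *Utp3* held *Utp3* 155, *Imp3* 145, *Mphosph10* 124 and *Imp4* 124. Factors of small subunit maturation went from *Pno1* 217, *Tsr1* 179 and *Emg1* 157 over *Rcl1* 115, *Nob1* 115, *Noc4l* 109.9 and *Nop14* 105 to *Ltv1* 92.5, *Nat10* 90.1, *Bms1* 82.2, *Rrp12* 75.7 and *Utp20* 66.3. Those of large subunit maturation began with *Brix1* 339, *Nip7* 258, *Pes1* 239 and *Ebna1bp2* 234. In the middle of that group were *Wdr12* 196, *Rrp1* 188, *Ftsj3* 186, *Nop2* 162, *Rrs1* 155 and *Nop16* 152. Its lower end held *Nvl* 114, *Noc2l* 108, *Las1l* 103, *Bop1* 80.2 and *Noc3l* 67.5 besides *Mdn1*. *Pes1*, *Bop1* and *Wdr12*, the 3 subunits of the PeBoW complex, stood at 239, 80.2 and 196, and the ranges of *Pes1* and *Bop1* over the 9 libraries do not overlap.

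**Figure D1:**
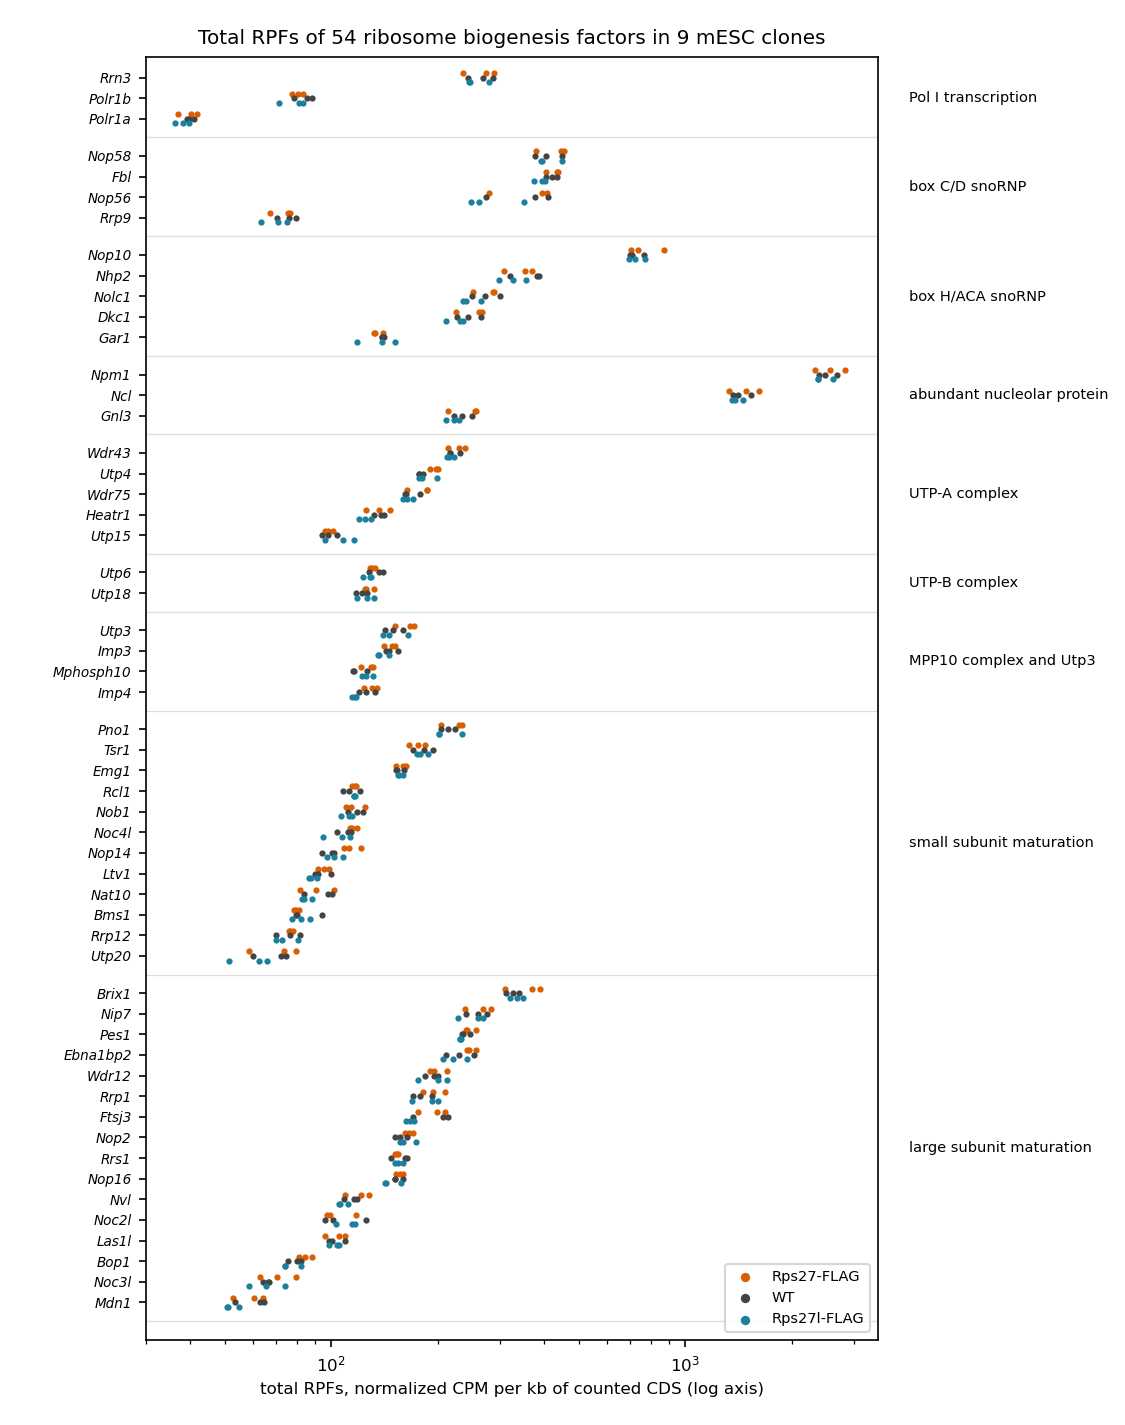
Each point is the total RPF level of a member in 1 clone, in normalized CPM per kb of counted CDS on a log axis, coloured by line and grouped by role, with 3 clones per line. *Npm1* and *Ncl* lie to the right of all other members in every clone, *Polr1a* to the left, and the 3 lines overlap in nearly every member.

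Between the total RPFs of the 3 lines the median log2 fold change of the members lay between -0.07 and 0.03. Whether tagging either gene changed the translation of these factors was asked by comparing the total RPFs of the 3 lines, which use the same 9 libraries in 1 fit, so the comparisons share libraries. No member passed an adjusted p of 0.05 (edgeR's quasi-likelihood test, Benjamini-Hochberg adjustment over 10085 transcripts) in any of the 3 comparisons, where the percentage of all tested transcripts called was 0%, 0% and 0%. Without adjustment 2, 2 and 4 members had a p under 0.05, beside 2.92%, 5.69% and 5.75% of all transcripts, and both DESeq2 and voom with limma called 0 in each. The median log2 fold change over the members was 0.03 for *Rps27-FLAG* against WT (0.00 over all transcripts), -0.04 for *Rps27l-FLAG* against WT (0.00 over all) and -0.07 for *Rps27l-FLAG* against *Rps27-FLAG* (0.00 over all). In the last comparison 48 of the 54 lay below 0. This was not shared by all 3 replicates: between the clones of replicate 1 more members lay above 0 than below it. In replicates 2 and 3 most lay below. Without 1 clone these medians lay between -0.0011 and 0.072, between -0.073 and -0.016, and between -0.13 and -0.053. With the replicate number, the library preparation pool, as a block, the 3 comparisons called 0.00992%, 1.43% and 1.36% of all transcripts and 0, 0 and 1 members.

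The member called with the block was *Nop56*, a core box C/D protein, lower in *Rps27l-FLAG* relative to *Rps27-FLAG*, with a log2 difference of -0.32 ± 0.072 (standard error, adjusted p = 0.0472). It was -0.33 without the block (adjusted p = 0.803), and with the block and the CDS length trend removed the adjusted p was 0.0502. Its total RPFs stood at 471, 665 and 684 normalized CPM in *Rps27-FLAG* replicates 1 to 3, at 419, 439.7 and 589.8 in *Rps27l-FLAG* and at 461, 635 and 692 in WT. Replicate 1 was the lowest in all 3 lines, and the lines overlapped. The differences of *Rps27l-FLAG* from *Rps27-FLAG* within pools were -0.17, -0.60 and -0.21 on the log2 scale. Against WT the value in *Rps27l-FLAG* was -0.30 with the block (adjusted p = 0.0652). Its IP RPFs followed the same order, with 416, 598 and 607 in *Rps27-FLAG* and 376, 409.8 and 533 in *Rps27l-FLAG*. They come from the same clones as the total RPFs, so this order is not a separate test of the difference.

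The other extremes did not pass the threshold. Against WT, *Nop14*, a small subunit processome protein, was the highest member in *Rps27-FLAG* with 0.21 on the log2 scale (SE 0.065, adjusted p = 0.999) and *Utp4* the second highest with 0.13. Their 3 *Rps27-FLAG* clones lay above the 3 WT clones, at 275, 307 and 283 against 237, 254 and 258 normalized CPM for *Nop14* and 381, 395 and 401 against 354, 353 and 364 for *Utp4*. These 2 were the only members (3.70%) without overlap in this comparison, beside 8.52% of all transcripts. The lowest were *Bms1* with -0.09 and *Nhp2* with -0.08. In *Rps27l-FLAG* against WT the lowest were *Nop56* with -0.30 and *Ftsj3*, a methyltransferase of the large subunit precursor, with -0.24, and the highest *Utp15* with 0.11 and *Mphosph10* with 0.09. Between the tagged lines the lowest after *Nop56* was *Utp20* with -0.24, and the highest were *Utp15* with 0.12 and *Noc2l* with 0.09. Single clones moved these values: without 1 clone *Utp20* lay between -0.35 and -0.14, *Utp15* between 0.054 and 0.19 and *Noc2l* between 0.040 and 0.18 for the tagged lines, and *Bms1* between -0.13 and -0.0037 and *Nhp2* between -0.16 and -0.0069 for *Rps27-FLAG* against WT. For *Rps27l-FLAG* against WT *Nop56* then lay between -0.47 and -0.18, *Utp15* between 0.048 and 0.18 and *Mphosph10* between 0.058 and 0.13. The median standard error of a member was 0.073 in each comparison. Fragments from a bulk culture cannot tell fewer translating cells from fewer fragments per cell, and mRNA levels were not analysed here.

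The IP RPFs were compared with the total RPFs of the same clones to ask which transcripts were richer or poorer in the pull-down. The paper proposes that anti-FLAG IP also enriches ribosomes translating *Tmod3*, whose growing peptide holds a FLAG-like sequence, with or without a tagged protein in them. Whether the peptides of members, some of them acidic, bind the antibody was not tested. Relative to total RPFs, fragments of the largest assembly factors were depleted from the IP of both tagged lines. *Mdn1* fell by 1.32 on the log2 scale in *Rps27-FLAG* and by 0.98 in *Rps27l-FLAG*, *Heatr1* by 0.90 and 0.69, and *Utp20* by 0.76 and 0.61. In *Rps27-FLAG* 10 members were lower and 0 higher in the IP (adjusted p under 0.05, edgeR's quasi-likelihood test), beside 5.34% of all transcripts lower and 0.327% higher. In *Rps27l-FLAG* 5 members were lower and 2 higher, *Npm1* and *Ncl*, beside 2.27% and 0.833% of all transcripts. The 10 are *Mdn1*, *Heatr1*, *Utp20*, *Las1l*, *Polr1b*, *Nat10*, *Bms1*, *Polr1a*, *Utp6* and *Utp15*, and the 5 are *Mdn1*, *Heatr1*, *Utp20*, *Las1l* and *Nat10*.

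These counts turned on single clones and on the pairing. Without replicate 2 or replicate 3 of *Rps27-FLAG* 0 members passed (13 and 16 at an unadjusted p under 0.05), and without replicate 1 there were 30. Without replicate 1 or replicate 2 of *Rps27l-FLAG* 0 passed (15 and 14 at an unadjusted p under 0.05). With the clone as a block, which pairs the IP and total library of 1 culture, 21 members were higher and 23 lower in *Rps27-FLAG*, where 18.3% of all transcripts were higher and 22.9% lower. In *Rps27l-FLAG* 16 were higher and 20 lower, where the percentages over all transcripts were 12% and 19%. Hence the members that differed made up 81.5% in *Rps27-FLAG* and, for *Rps27l-FLAG*, 66.7%. The p-values of these fits draw on the spread of all tested transcripts, and do not measure the spread of the 3 clones alone. Without the block the median over members was -0.02 in *Rps27-FLAG* (-0.01 over all transcripts) and -0.03 in *Rps27l-FLAG* (-0.03 over all). In 25 of the 54 members the 3 IP libraries of *Rps27-FLAG* did not overlap the 3 total libraries, beside 28.3% of all transcripts, and in *Rps27l-FLAG* this held for 25, beside 23.2%.

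With the block, 16 members were higher and 18 lower in both lines, which share no library. The share of all transcripts called alike in both lines is not given here, so these counts are not shown to be particular to the members. A further 10 passed the threshold in *Rps27-FLAG* only and *Bop1* and *Rcl1* in *Rps27l-FLAG* only, and 8 (*Brix1*, *Dkc1*, *Emg1*, *Nob1*, *Noc2l*, *Noc3l*, *Nop2* and *Utp18*) passed it in neither. Of the 10, *Ebna1bp2*, *Imp3*, *Ltv1*, *Nop14* and *Utp3* were higher, and *Nop58*, *Rrn3*, *Rrp9*, *Tsr1* and *Wdr43* lower. None of these 12 differed between the lines in the test of the difference given further below. The sign of the fold change was shared by 50 of the 54 members, and *Emg1*, *Nob1*, *Nop2* and *Nop58* had opposite signs. Across the 54 members, which are not replicates, the fold changes of both lines had a Pearson correlation of 0.971. Neither the shared signs nor this correlation is set beside a value over all transcripts.

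**Figure D2:**
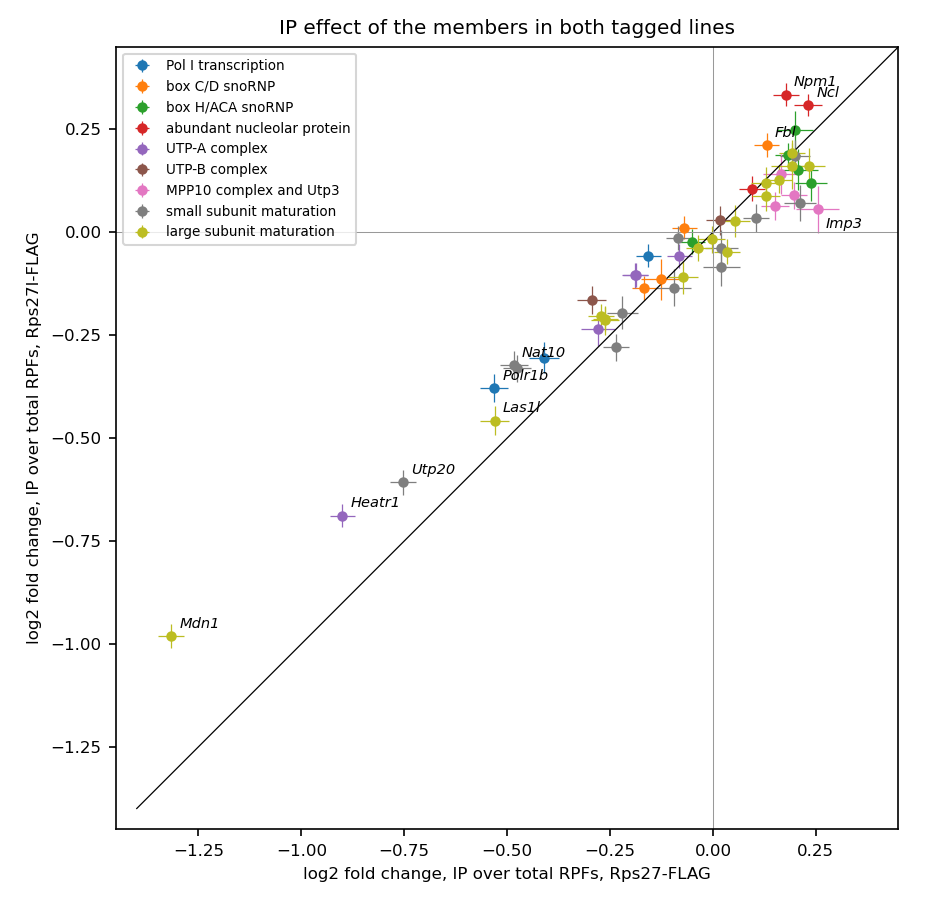
Each point is a member, with its log2 fold change of IP over total RPFs in *Rps27-FLAG* on the horizontal and in *Rps27l-FLAG* on the vertical axis, from the fit with the clone as a block, bars of 1 standard error, colours for roles and the line of equal effects. *Mdn1*, *Heatr1* and *Utp20* lie above this line, at less negative values in *Rps27l-FLAG*, and *Npm1* lies above it at the other end.

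By role, and with the clone as a block, all 3 factors of polymerase I transcription were lower in the *Rps27-FLAG* IP and 2 in the *Rps27l-FLAG* IP. *Polr1a* stood at 151, 161 and 145 normalized CPM in the IP RPFs of *Rps27-FLAG* replicates 1 to 3, against 204, 213 and 187 in their total RPFs. In *Rps27l-FLAG* it stood at 168, 158 and 142 in the IP RPFs against 195, 202 and 184 in the total RPFs, and in the total RPFs of WT at 199, 201 and 209. All 6 IP libraries lay below all 9 total libraries, and the log2 fold changes were -0.41 and -0.30 in *Rps27-FLAG* and *Rps27l-FLAG* (adjusted p = 1.16e-27 and 1.25e-09). *Polr1b* had 174, 189 and 198 normalized CPM in the 3 *Rps27-FLAG* IP libraries, in replicate order, and 260.1, 269.8 and 278 in the matching total libraries. The *Rps27l-FLAG* clones gave 221, 206 and 177 in the IP and 278, 272 and 239 in the total RPFs, and the WT clones gave 285, 263 and 296 in total RPFs. Again no IP library reached a total library, with log2 fold changes of -0.53 and -0.38 in the same order. *Rrn3* had -0.16 and -0.06, the second of which did not pass (adjusted p = 0.128).

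The box C/D proteins were split. The IP RPFs of *Rps27-FLAG* replicates 1 to 3 held 401, 448 and 444 normalized CPM of *Fbl*, and their total RPFs 374, 404 and 402. For *Rps27l-FLAG* these values were 439, 421 and 391 in the IP and 365, 371 and 346 in the total RPFs, and the total RPFs of WT stood at 374, 389 and 401. *Fbl*, the enzyme that methylates rRNA, was higher in the IP, by 0.13 on the log2 scale in *Rps27-FLAG* (adjusted p = 0.000117) and 0.21 in *Rps27l-FLAG* (adjusted p = 3.16e-08), and the IP libraries overlapped the total libraries in *Rps27-FLAG* only. *Nop56* was lower in both lines (-0.17 and -0.13). *Rrp9* (-0.13) and *Nop58* (-0.07) were lower in *Rps27-FLAG*, and in *Rps27l-FLAG* they had -0.11 and 0.01 without passing.

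Of the 5 H/ACA members, *Nop10*, *Nhp2*, *Gar1* and *Nolc1* were higher in the IP of both lines, with log2 fold changes from 0.18 to 0.24 in *Rps27-FLAG* and from 0.12 to 0.25 in *Rps27l-FLAG*. For *Dkc1* the normalized CPM of *Rps27-FLAG* replicates 1 to 3 were 311, 386 and 373 in the IP RPFs and 330.0, 391 and 385 in the total RPFs. Those of *Rps27l-FLAG* were 306, 343 and 332 in the IP RPFs and 311, 339.7 and 347 in the total RPFs, beside 333, 358 and 390.2 in the total RPFs of WT. These overlap in both lines, and *Dkc1* had log2 fold changes of -0.05 and -0.02 that did not pass (adjusted p = 0.191 and 0.628). *Nhp2* came to 139, 177 and 173 normalized CPM in *Rps27-FLAG* IP replicates 1 to 3, from 123, 142 and 148 in the total RPFs of these clones. Replicates 1 to 3 of *Rps27l-FLAG* came to 138, 127 and 163 in the IP and 119, 131 and 143 in the total RPFs, and WT to 129, 155 and 153 in the total RPFs. *Nhp2*, which binds the H/ACA RNA with *Nop10*, was higher in 5 of 6 clones, the exception being *Rps27l-FLAG* replicate 2.

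All 3 abundant nucleolar proteins were higher in the IP of both lines. *Npm1* stood at 1977, 2536 and 2704 normalized CPM in the IP RPFs of *Rps27-FLAG* replicates 1 to 3, against 1912, 2110.1 and 2327 in their total RPFs. In *Rps27l-FLAG* it stood at 2316, 2621 and 2686 in the IP RPFs against 1945, 1949.9 and 2145 in the total RPFs, and in the total RPFs of WT at 1955, 2034 and 2200.1. In *Rps27-FLAG* replicate 1 the IP exceeded the total only slightly, and in *Rps27l-FLAG* every IP library lay above the 3 total libraries of the line. The log2 fold change was 0.18 in *Rps27-FLAG* (adjusted p = 2.18e-07, without the block 0.18, adjusted p = 0.43) and 0.33 in *Rps27l-FLAG* (adjusted p = 5.99e-16, without the block 0.34, adjusted p = 0.0358). The log2 ratios of the 3 clones had a SD of 0.11 and 0.088 in these lines, while the standard errors with the block were 0.032 and 0.027. *Ncl* had 3065, 3733 and 3968 normalized CPM in the 3 *Rps27-FLAG* IP libraries, in replicate order, and 2748, 3071 and 3330.1 in the matching total libraries. The *Rps27l-FLAG* clones gave 3299, 3706 and 3756 in the IP and 2808, 2854 and 3016 in the total RPFs, and the WT clones gave 2823, 2906 and 3168 in total RPFs. *Ncl* was higher in the IP of all 6 clones, with log2 fold changes of 0.23 and 0.31 in *Rps27-FLAG* and *Rps27l-FLAG*. *Gnl3* had 0.09 and 0.11. At rank 169 and 252 of 10085 by log2 fold change in *Rps27l-FLAG*, *Npm1* and *Ncl* were the members with the highest values there.

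The complexes of the small subunit processome went different ways. All 5 UTP-A members were lower in the *Rps27-FLAG* IP, and 4 of them in the *Rps27l-FLAG* IP, *Wdr43* being the one that did not pass (-0.06). The IP RPFs of *Rps27-FLAG* replicates 1 to 3 held 437, 492 and 463 normalized CPM of *Heatr1*, and their total RPFs 798, 934 and 871. For *Rps27l-FLAG* these values were 529, 492 and 456 in the IP and 826, 794 and 763 in the total RPFs, and the total RPFs of WT stood at 844, 882 and 896. For *Heatr1*, the longest UTP-A protein, the 6 IP libraries reached at most 529 and the 9 total libraries were at least 763. Without the block its log2 fold changes were -0.90 (standard error 0.077, adjusted p = 0.00128) and -0.69 (standard error 0.063, adjusted p = 0.00378). *Utp15* had -0.28 and -0.24, *Utp4* -0.19 and -0.11 and *Wdr75* -0.19 and -0.10 with the block. Of UTP-B, *Utp6* was lower (-0.30 and -0.16) and *Utp18* did not pass in either line (0.02 and 0.03).

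The MPP10 complex and *Utp3* differed in direction from UTP-A in *Rps27-FLAG*. All 4 were higher in the *Rps27-FLAG* IP, and *Mphosph10* and *Imp4* also in the *Rps27l-FLAG* IP. Their median CDS was shorter, 1143 nt beside 2061 nt for UTP-A. With a trend in CDS length removed, only *Mphosph10* and *Utp3* stayed higher in *Rps27-FLAG* (0.25 and 0.14), and only *Mphosph10* in *Rps27l-FLAG* (0.13). For *Mphosph10* the normalized CPM of *Rps27-FLAG* replicates 1 to 3 were 283, 300.3 and 284 in the IP RPFs and 241, 261 and 257 in the total RPFs. Those of *Rps27l-FLAG* were 274, 266 and 262 in the IP RPFs and 261, 248 and 243 in the total RPFs, beside 250.0, 230.0 and 228 in the total RPFs of WT. *Mphosph10*, the scaffold of the complex, lay higher in all 6 IP libraries than in any of the 9 total libraries, and its log2 fold changes were 0.20 and 0.09 (adjusted p = 1.39e-08 and 0.0289). *Imp3* came to 85.8, 91.4 and 82.9 normalized CPM in *Rps27-FLAG* IP replicates 1 to 3, from 73.6, 69.9 and 75.2 in the total RPFs of these clones. Replicates 1 to 3 of *Rps27l-FLAG* came to 74.5, 72.6 and 67.5 in the IP and 72.2, 67.1 and 67.5 in the total RPFs, and WT to 70.7, 72.3 and 76.5 in the total RPFs. *Imp3*, its RNA-binding partner, had 0.25 in *Rps27-FLAG* and 0.06 in *Rps27l-FLAG*, where the IP and total libraries overlapped. *Imp4* had 0.16 and 0.14 and *Utp3* 0.15 and 0.06.

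Of the other 12 small subunit factors, 3 were higher and 6 lower in the *Rps27-FLAG* IP, and 1 was higher and 6 lower in the *Rps27l-FLAG* IP. *Bms1* stood at 216, 214 and 224 normalized CPM in the IP RPFs of *Rps27-FLAG* replicates 1 to 3, against 301, 308 and 297 in their total RPFs. In *Rps27l-FLAG* it stood at 256, 264 and 223 in the IP RPFs against 331, 311 and 294 in the total RPFs, and in the total RPFs of WT at 357, 302 and 304. For *Bms1*, the GTPase of the processome, the IP libraries of each line lay below the total libraries, with log2 fold changes of -0.48 and -0.33. *Nob1* had 131, 137 and 139 normalized CPM in the 3 *Rps27-FLAG* IP libraries, in replicate order, and 127, 144 and 131 in the matching total libraries. The *Rps27l-FLAG* clones gave 128, 128 and 118 in the IP and 132, 129.6 and 123 in the total RPFs, and the WT clones gave 128, 142 and 136 in total RPFs. *Nob1*, the nuclease that makes the 3′ end of 18S rRNA in the cytoplasm, overlapped in both lines and had 0.02 and -0.04, neither passing (adjusted p = 0.734 and 0.565).

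The IP RPFs of *Rps27-FLAG* replicates 1 to 3 held 299, 381 and 358 normalized CPM of *Utp20*, and their total RPFs 486, 659.9 and 609.5. For *Rps27l-FLAG* these values were 338, 279.8 and 361 in the IP and 518, 427 and 545 in the total RPFs, and the total RPFs of WT stood at 499, 599 and 618. *Utp20*, a very long processome protein, showed a wide spread between clones in total RPFs, and still every IP library was below the total library of its clone. For *Nat10* the normalized CPM of *Rps27-FLAG* replicates 1 to 3 were 183, 218 and 187 in the IP RPFs and 246, 307 and 273 in the total RPFs. Those of *Rps27l-FLAG* were 207, 201 and 205 in the IP RPFs and 253, 249.8 and 265 in the total RPFs, beside 253, 304 and 295 in the total RPFs of WT. *Nat10*, the acetyltransferase of 18S rRNA, had log2 fold changes of -0.48 and -0.32. *Ltv1* came to 146, 154 and 147 normalized CPM in *Rps27-FLAG* IP replicates 1 to 3, from 124, 133 and 129 in the total RPFs of these clones. Replicates 1 to 3 of *Rps27l-FLAG* came to 127, 127 and 124 in the IP and 123, 117 and 119 in the total RPFs, and WT to 121, 124 and 135 in the total RPFs. *Ltv1*, a late factor removed in the cytoplasm, was higher in *Rps27-FLAG*, by 0.21, and had 0.07 in *Rps27l-FLAG* (adjusted p = 0.225). *Pno1*, the partner of *Nob1*, was higher in both lines (0.20 and 0.18) and *Nop14* in *Rps27-FLAG* (0.10 and 0.04). *Rrp12* (-0.24 and -0.28) and *Noc4l* (-0.22 and -0.20), the partner of *Nop14*, were lower in both, and *Tsr1* (-0.08 and -0.01) in *Rps27-FLAG*. *Rcl1* (-0.10 and -0.13), the partner of *Bms1*, was lower in *Rps27l-FLAG* and *Emg1* (0.02 and -0.08), which methylates 18S rRNA, did not pass.

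The 16 large subunit factors held the largest difference of all members. With the block 6 of them were higher and 5 lower in the *Rps27-FLAG* IP, and 5 higher and 6 lower in the *Rps27l-FLAG* IP. *Mdn1* stood at 359, 421 and 408 normalized CPM in the IP RPFs of *Rps27-FLAG* replicates 1 to 3, against 879, 1071 and 1012 in their total RPFs. In *Rps27l-FLAG* it stood at 432, 463 and 430.3 in the IP RPFs against 848, 918 and 851 in the total RPFs, and in the total RPFs of WT at 892, 1049 and 1080.3. *Mdn1* (chromosome 4 of GRCm38, 32657119 to 32775217, 102 coding exons) ranked 3 from the bottom of 10085 transcripts in *Rps27-FLAG* and 5 in *Rps27l-FLAG*. Its IP libraries of both lines lay below all 9 total libraries, with log2 fold changes without the block of -1.32 (standard error 0.093, adjusted p = 0.00102) and -0.98 (standard error 0.054, adjusted p = 0.000547). *Las1l* had 151, 163 and 160.4 normalized CPM in the 3 *Rps27-FLAG* IP libraries, in replicate order, and 214, 233 and 242 in the matching total libraries. The *Rps27l-FLAG* clones gave 164, 160.1 and 175 in the IP and 234, 218 and 229.8 in the total RPFs, and the WT clones gave 219, 223 and 243 in total RPFs. *Las1l*, the endonuclease that cuts the second internal spacer, had -0.53 and -0.46 with the block, the lowest values of the members with a CDS under 3000 nt (its own is 2280 nt).

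The IP RPFs of *Rps27-FLAG* replicates 1 to 3 held 325, 361 and 355 normalized CPM of *Pes1*, and their total RPFs 406, 436 and 411. For *Rps27l-FLAG* these values were 344, 353 and 323 in the IP and 392, 395 and 392 in the total RPFs, and the total RPFs of WT stood at 397, 399 and 419. *Pes1* and *Wdr12* of the PeBoW complex were lower in both lines (-0.27 and -0.20 and, for *Wdr12*, -0.26 and -0.21), and *Bop1* in *Rps27l-FLAG* (-0.07 and -0.11). For *Nip7* the normalized CPM of *Rps27-FLAG* replicates 1 to 3 were 130.1, 163 and 156 in the IP RPFs and 115, 136 and 129.8 in the total RPFs. Those of *Rps27l-FLAG* were 137, 126 and 145 in the IP RPFs and 126, 110.0 and 129 in the total RPFs, beside 116, 126 and 134 in the total RPFs of WT. *Nip7* was higher in the IP of all 6 clones (0.23 and 0.16). Also higher in both lines were *Rrp1* (0.19 and 0.19), *Nop16* (0.19 and 0.16), *Rrs1* (0.13 and 0.12), which helps load the 5S ribonucleoprotein, and *Nvl* (0.16 and 0.13), an AAA ATPase, and *Ebna1bp2* in *Rps27-FLAG* (0.13 and 0.09). *Ftsj3* was lower in both (-0.26 and -0.21). *Brix1* (-0.04 and -0.04), the rRNA cytosine methyltransferase *Nop2* (0.03 and -0.05), and *Noc2l* (-0.00 and -0.02) and *Noc3l* (0.05 and 0.03), which form a complex on the large subunit precursor, passed in neither line.

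**Figure D3:**
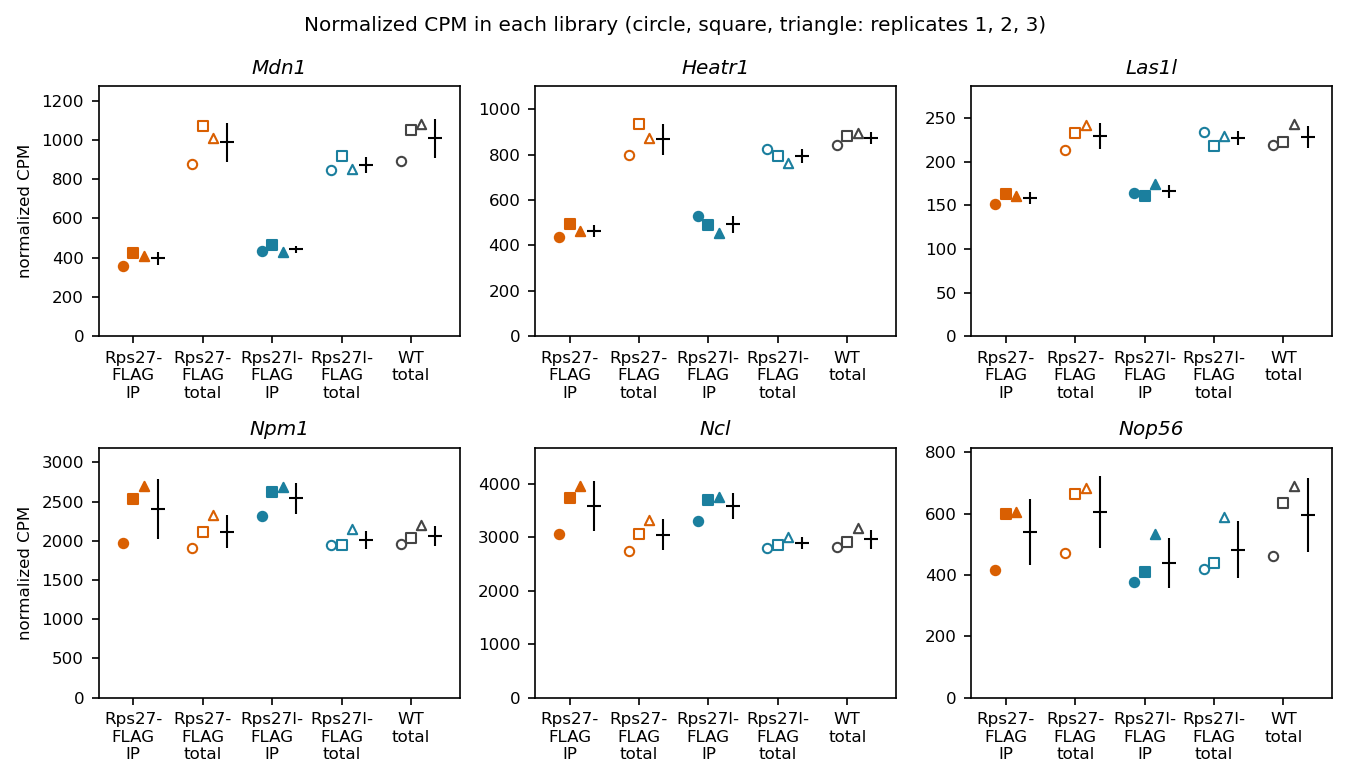
Normalized CPM of 6 members in each of the 15 libraries, with filled symbols for IP RPFs, open symbols for total RPFs, a symbol shape for each replicate, and the mean ± SD of 3 clones at the right of each group. The IP libraries of *Mdn1*, *Heatr1* and *Las1l* lie below all total libraries, those of *Ncl* and *Npm1* mostly above, and replicate 1 is the lowest for *Nop56* in every group.

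The direction in the IP went with CDS length. All 8 members with a CDS over 3000 nt were lower in the IP of both lines with the block, and of the 10 with a CDS under 900 nt 9 were higher in *Rps27-FLAG* and 8 in *Rps27l-FLAG*. *Emg1* (735 nt) is the exception in both lines, and in *Rps27l-FLAG* also *Imp3*. The share of all transcripts of these lengths that passed is not given here, so the counts are not set apart from other transcripts of like length. Across the 54 members Spearman's rho between the log2 fold change and CDS length was -0.667 in *Rps27-FLAG* and -0.619 in *Rps27l-FLAG*, as a description, beside -0.562 and -0.527 over the 10082 transcripts. The share of lysine and arginine codons had rho of 0.554 and 0.562 over the members beside 0.122 and 0.127 over all transcripts. With the length trend removed these were 0.512 and 0.495 over the members and 0.0659 and 0.0792 over all. The other features of CDS composition compared had smaller rho over the members. The share of acidic codons had 0.132 and 0.135, beside 0.0455 and 0.069 over all. With the length trend removed it had 0.348 and 0.339, beside 0.1115 and 0.1276. The richest acidic stretch had -0.158 and -0.134, beside -0.183 and -0.169, and the GC percentage 0.160 and 0.0556, beside 0.0643 and 0.0272. All points come from the same libraries.

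**Figure D4:**
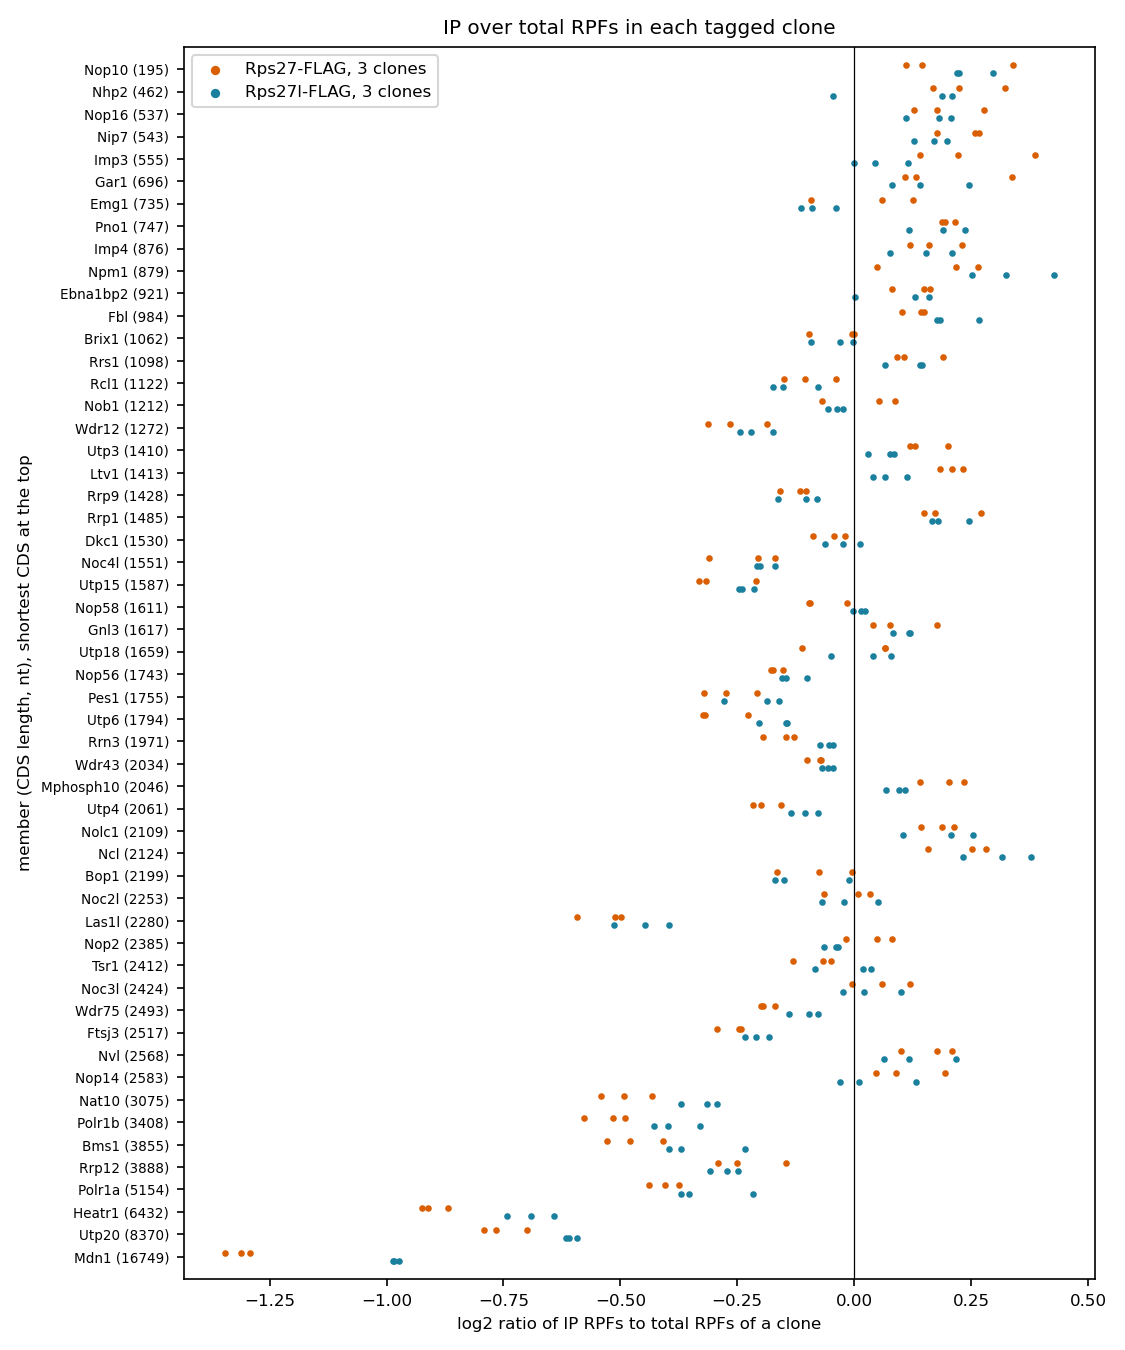
Log2 ratio of IP to total RPFs in each of the 3 *Rps27-FLAG* and 3 *Rps27l-FLAG* clones for all 54 members, ordered by CDS length with the shortest at the top. Most of the short members lie to the right of 0 and the 8 longest to the left in every clone, while *Ncl*, *Nolc1* and *Mphosph10* lie to the right and *Las1l* to the left.

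When the length trend was removed from each library, in the fit with the clone as a block, 11 members were higher and 23 lower in the *Rps27-FLAG* IP, beside 12.3% and 18.2% of all transcripts. In *Rps27l-FLAG* 9 were higher and 18 lower, beside 9.14% and 13.2%. *Mdn1* still had -0.77 and -0.57, *Heatr1* -0.57 and -0.44 and *Las1l* -0.45 and -0.39, while *Utp20* came to -0.36 and -0.31 and *Polr1a* to -0.14 and -0.09. At the other end stood *Ncl* with 0.29 and 0.36, *Nvl* with 0.27 and 0.21, *Mphosph10* with 0.25 and 0.13 and *Nolc1* with 0.24 and 0.24, all higher in both lines. *Npm1* was higher in *Rps27l-FLAG* (0.26) and had 0.07 in *Rps27-FLAG* (adjusted p = 0.0981). Several short members that were higher before no longer were. *Nop10* was lower in *Rps27-FLAG* and had -0.11 and -0.02. *Nhp2* had 0.03 and -0.05, *Gar1* 0.06 and 0.04, *Imp4* 0.06 and 0.06, and *Imp3* 0.07 and -0.10, none passing in either line. Of the UTP-A members 4 were lower in *Rps27-FLAG*, and for *Rps27l-FLAG* this held for 2.

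Of the 5 members with at least 15 acidic codons in a stretch of 20, 2 were higher in the IP of both lines, 2 were lower in both and 1 was lower in *Rps27-FLAG* only. The 2 higher ones are those with 20 of 20, *Npm1* among them, and *Las1l*, with 18 of 20, fell by 0.53 and 0.46. How many of the 201 tested transcripts with at least 15 acidic codons in a stretch passed, and in which direction, is not given here. The directions of these 5 members are therefore not set apart from those of other transcripts with such a stretch. With the length trend removed *Npm1* did not pass in *Rps27-FLAG* (0.07, adjusted p = 0.0981, edgeR), and the other with 20 of 20 stayed higher in both lines. *Polr1a*, lower in both before, then did not pass in *Rps27l-FLAG* (-0.09, adjusted p = 0.0726). *Wdr43* passed in neither line, and *Las1l* stayed lower with -0.45 and -0.39.

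**Figure D5:**
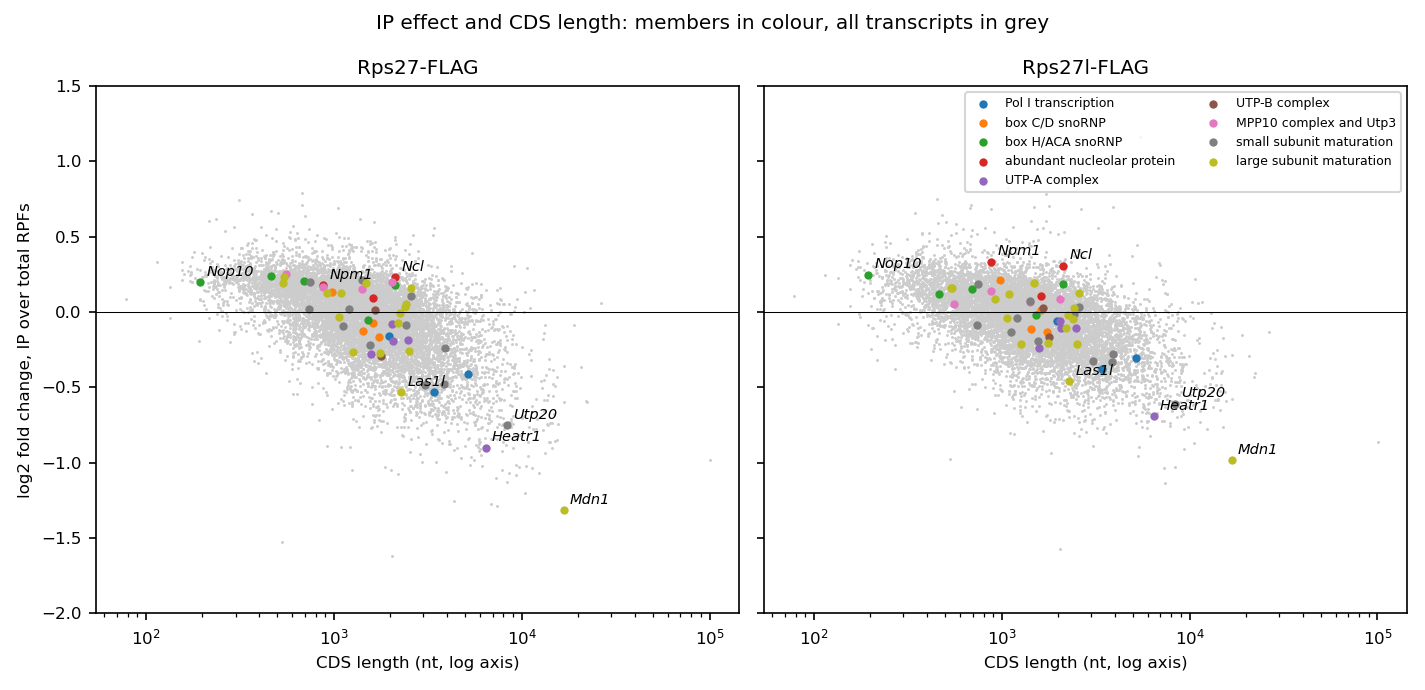
Log2 fold change of IP over total RPFs against CDS length on a log axis, from the fit with the clone as a block, in *Rps27-FLAG* (left) and *Rps27l-FLAG* (right), with the 54 members in the colour of their role and all 10082 tested transcripts with a CDS in grey. Both clouds slope down, and *Mdn1*, with the longest CDS of the members at 16749 nt, is the lowest member in both lines, at -1.32 in *Rps27-FLAG* and -0.98 in *Rps27l-FLAG*.

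Whether Rps27- and Rps27l-ribosomes differed in these transcripts was tested as the difference of the IP effects, with the clone as a block, an adjusted p under 0.05 and an absolute log2 fold change over 0.25. *Mdn1* was the 1 member that passed, beside 0.575% of all transcripts. A positive value stands for a higher IP to total ratio in *Rps27l-FLAG*. The log2 ratio of *Mdn1* was -1.29, -1.34 and -1.31 in the *Rps27-FLAG* clones and -0.97, -0.99 and -0.98 in the *Rps27l-FLAG* clones. Its depletion was weaker in every *Rps27l-FLAG* clone, by 0.34 on the log2 scale (standard error 0.041, adjusted p = 1.24e-09, edgeR's quasi-likelihood test), and it passed without each of the 6 clones in turn. With the length trend removed the difference was 0.20 (adjusted p = 0.00199), under the limit on the fold change, and without the block no transcript was called (142 at an unadjusted p under 0.05, 1 of them a member).

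Without the limit on the fold change 3 members passed, beside 1.5% of all transcripts, the others being *Heatr1* and *Npm1*. The log2 ratios of *Heatr1* were -0.87, -0.92 and -0.91 in *Rps27-FLAG* and -0.64, -0.69 and -0.74 in *Rps27l-FLAG*, which do not overlap, and the difference was 0.21 (adjusted p = 0.000404). With the length trend removed it was 0.14 (adjusted p = 0.0687). *Npm1* had 0.05, 0.27 and 0.22 in *Rps27-FLAG* and 0.25, 0.43 and 0.32 in *Rps27l-FLAG*. These overlap, and its difference of 0.16 (adjusted p = 0.0185) had an adjusted p of 0.323 without *Rps27-FLAG* replicate 1, of 0.160 without *Rps27l-FLAG* replicate 2, of 0.0829 without *Rps27-FLAG* replicate 3 and of 0.0926 without *Rps27l-FLAG* replicate 3, and of 0.534 with DESeq2.

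In 20 of the 54 members the ratios of the 3 clones of one line did not overlap those of the other, beside 16.2% of all transcripts. The median difference over the members was 0.01 (0.00 over all transcripts), and 31 lay above 0. All 3 polymerase I genes were above 0, from 0.10 to 0.15, and all 4 members of the MPP10 group below it, from -0.20 for *Imp3* to -0.02 for *Imp4*, none passing (lowest adjusted p = 0.0893 among these 7). The lowest of all members were *Imp3* and *Ltv1* (-0.14, adjusted p = 0.28). The median standard error of a member was 0.047.

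A wider list held 117 other biogenesis genes, for which 113 transcripts were tested. With the clone as a block 40 were higher and 33 lower in the *Rps27-FLAG* IP, beside 18.3% and 22.9% of all transcripts, and 24 and 24 in the *Rps27l-FLAG* IP, beside 12% and 19%. Without the block 1 was higher and 7 lower in *Rps27-FLAG*, beside 0.327% and 5.34%, and 0 and 5 in *Rps27l-FLAG*, beside 0.833% and 2.27%. The largest falls in *Rps27-FLAG* among those called were *Urb2* (-0.79) and *Urb1* (-0.72), both long factors of the large subunit, and the largest rises *Ngdn* (0.28) and *Trmt112* (0.27). In *Rps27l-FLAG* the largest falls were 1 transcript of *Wdr74* (-0.58, standard error 0.23) and *Urb2* (-0.55), and the largest rises *Rpf1* (0.25) and *Rsl24d1* (0.24). In the difference of the IP effects none passed with the limit on the fold change, and *Urb2* (0.23), *Urb1* (0.21) and *Gtpbp4* (0.16) passed without it. No transcript of this list rose or fell in the total RPFs without the block, and 1 was lower in *Rps27l-FLAG* than in WT with it.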

How the data were processed

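The 15 libraries were mapped to line, fraction and clone by their titles. The authors trimmed reads with cutadapt 2.4, removed PCR duplicates by unique molecular identifiers with UMI-tools 1.0.1, aligned fragments with Bowtie2 2.3.4.3 to GRCm38 transcripts, kept unique alignments, and deposited raw counts of fragments per coding sequence (CDS), without its first 15 and last 5 codons. All 15 columns of the deposited table were used (columns left unused: 0). Libraries hold 3972152 to 8064166 counts, and the lowest count of a member is 264 (*Imp3*).

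From the counts, 13 mitochondrially encoded transcripts were left out, 10085 of 21727 transcripts with a CPM over 2 in at least 14 of 15 libraries entered the tests, and IP and total libraries each received their own TMM factors. edgeR 4.0.16 (R 4.3.3) gave quasi-likelihood tests with Benjamini-Hochberg adjustment over all tested transcripts, at 0.05, in the study's designs: line for total RPFs, fraction for IP against total, and line, clone and fraction for the difference of IP effects, there with an absolute log2 fold change over 0.25. Fits with the clone or, for total RPFs, the replicate number (1 library preparation pool each) as a block, a loess on CDS length (span 0.5) subtracted from each library, limma 3.58.1 (voom), DESeq2 1.42.0, other scalings and filters, and each clone left out were the alternatives. The replicate number pairs both fractions of a clone: their deviations from the group means correlated at 0.468 to 0.790, and replicate libraries differed by more than counting error (chi-square per degree of freedom 1.78 to 10.3). The script was tested on simulated counts. CDS positions and sequences came from GENCODE M21, with pandas 2.3.3 and matplotlib 3.10.9.

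All 54 members were described by role, with values in every library for members that define a role and for the extremes of level and of each comparison. Members and lists were chosen with earlier results of these data known. The sequence of 1 other acidic stretch is not reported here.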

Additional observations from a re-analysis of the deposited data

Results flagged for a closer look

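The effect of the IP differed between the tagged lines in 3 members (edgeR's test of the difference, clone as a block, *Rps27l-FLAG* minus *Rps27-FLAG*, without a limit on the fold change). *Mdn1* differed by 0.34 (standard error 0.041, adjusted p = 1.24e-09), with mean log2 ratios of -1.32 ± 0.027 (SD, n = 3 clones) in *Rps27-FLAG* and -0.98 ± 0.0072 in *Rps27l-FLAG*. *Heatr1* differed by 0.21 (standard error 0.041, adjusted p = 0.000404), with -0.90 ± 0.030 and -0.69 ± 0.050. *Npm1* differed by 0.16 (standard error 0.041, adjusted p = 0.0185), with 0.18 ± 0.11 and 0.33 ± 0.088, and its adjusted p over the 6 fits without 1 clone went from 0.00182 to 0.323.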

How the results depend on the processing

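The number of members called turned mainly on the pairing. For IP against total RPFs the replicate block (clone) gave 44 members in *Rps27-FLAG* and 36 in *Rps27l-FLAG*, against 10 and 7 without it. The block with the CDS length trend removed gave 34 and 27, and removing the trend alone 3 and 1, where it left 1.47% and 0.0595% of all transcripts called. Leaving out 1 clone gave 0 to 30 members in *Rps27-FLAG* and 0 to 9 in *Rps27l-FLAG*. Between the total RPFs of the tagged lines the replicate block by library preparation pool gave 1 member against 0. For the difference of the IP effects the counts were 0 with the length trend removed, 0 with no replicate block and 3 without the limit on the fold change, against 1, and without each clone in turn it was 1. The cause of these changes was not tested. In total RPFs the other settings called 0 members in each comparison.

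The median over members for IP against total moved in *Rps27-FLAG* from -0.02 to 0.0042 with DESeq2, 0.0059 with its size factors and -0.0077 with TMM over all 15 libraries, and lay between -0.033 and -0.020 without 1 clone. In *Rps27l-FLAG* it moved to 0.0019, 0.0023 and -0.0088 in the same order, to -0.021 with the length trend removed and to -0.020 with the block as well. The median difference of IP effects lay between 0.011 and 0.027 without 1 clone. Per kb of the full CDS the median level was 139.7. Signs reversed for *Nob1* in *Rps27-FLAG* with the length trend removed (-0.018, and -0.019 with the block) and without 1 clone (range -0.0080 to 0.072), for *Dkc1* in *Rps27l-FLAG* with DESeq2 (0.0083) and its size factors (0.0090), for *Nop10* in *Rps27l-FLAG* with the length trend removed (-0.027, and -0.024 with the block), and for *Nop56* in the total RPFs of *Rps27-FLAG* against WT without 1 clone (range -0.13 to 0.18). None of these passed the threshold. In the fits with the block, removing the length trend turned the sign of 5 members in *Rps27-FLAG* and 6 in *Rps27l-FLAG*. After it 2 of them passed, both in *Rps27-FLAG*: *Nop10*, from 0.20 to -0.11 (adjusted p = 0.0484, edgeR), and *Emg1*, from 0.02 to -0.12 (adjusted p = 0.0365).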
